A study of Homo sapiens with 24 samples.

Results

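The 10 erythroid transcription factors GATA1, ZFPM1, TAL1, LYL1, LMO2, LDB1, KLF1, NFE2, GFI1B and MYB were followed through a K562 cell-cycle time series. They were taken by name and matched by symbol to the Ensembl identifiers of the expression table, in which all 10 were found among 12285 genes. K562 is an established human line from a chronic myeloid leukaemia, with erythroid features. A synchronous population was collected by centrifugal elutriation, which separates cells by size, and grown in RPMI with bovine calf serum and the supplement that the labels call P/S. RNA was sequenced at 24 time points spaced 2 h apart, the last at 46 h, with a single sample at each and no untreated or unsynchronised sample. The study examines STRIPEs, time points at which transcript levels across the transcriptome depart from their neighbors. It names 16 h and 18 h as such and 32 h as a mild one, and proposes a technical rather than biological origin for STRIPEs.

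These factors work as assemblies on DNA. GATA1 binds GATA sites and is the central activator of erythroid genes, and ZFPM1 (FOG1) is a cofactor that binds GATA1 itself. TAL1 and LYL1 are related basic helix-loop-helix factors that bind E-boxes with an E protein such as TCF3, and LMO2 and LDB1 are the adaptors that join them to GATA1. KLF1 binds CACCC boxes of globin and other red cell genes, and NFE2 pairs with a small MAF protein to act on the globin loci. GFI1B is a repressor that brings in LSD1 and CoREST, and MYB keeps progenitors dividing and is normally lowered as red cells mature.

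Values are FPKM, in which fragments are scaled by transcript length and by the size of the library, so they can be compared between genes. Red cell transcripts were present at every time point, at uneven levels. HBG2, a fetal globin, was between 1064 and 3141 FPKM over 22 time points (all but 16 h and 18 h), and ALAS2, which starts erythroid haem synthesis, was between 37.1 and 85.6 FPKM. At 16 h and 18 h HBG2 was 684 and 533 FPKM and ALAS2 74.5 and 65.1 FPKM. SLC4A1 (band 3) had a median of only 6.35 FPKM, and 2 of 46 erythroid genes looked for had no row in the table. Of the markers of other cells, 9 of 12 megakaryocyte, 5 of 8 lymphoid, 6 of 7 myeloid and 5 of 6 fibroblast genes had no row in the table, in which every gene reached at least 1 FPKM at 12 or more time points. Among those with a row, the megakaryocyte marker GP1BB had a median of 69.1 FPKM, the lymphoid marker PTPRC 28.0 FPKM and the myeloid marker LYZ 21.9 FPKM. The number of reads per sample is unknown from the files. Summed FPKM lay between 456791 and 520382 in the 22 time points and was 566247 at 16 h and 591309 at 18 h. In bulk RNA such as this, fewer cells with a transcript and less of it per cell cannot be told apart.

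Promoters were searched because several of these factors bind GATA sites and CACCC boxes. RefSeq (GRCh38.p14) gave a start site for 8 of the 10 genes, NFE2 and LMO2 being the exceptions, and 10 windows of 250 bases upstream, since TAL1 and GFI1B each had a pair. Capitals mark GATA sites (the letters GATA preceded by A or by T and followed by A or by G) and the core CACCC, each searched on both strands. On the other strand a GATA site therefore shows TATC within its capitals, and the core shows GGGTG. Each sequence is written 5′ to 3′ along the strand of its gene. Only the windows with a GATA site and that of GATA1, which has none, are printed. Those of MYB, LDB1 and ZFPM1 and the other windows of TAL1 and GFI1B had no GATA site and are left out.
GATA1, chrX:48786340-48786589, plus strand: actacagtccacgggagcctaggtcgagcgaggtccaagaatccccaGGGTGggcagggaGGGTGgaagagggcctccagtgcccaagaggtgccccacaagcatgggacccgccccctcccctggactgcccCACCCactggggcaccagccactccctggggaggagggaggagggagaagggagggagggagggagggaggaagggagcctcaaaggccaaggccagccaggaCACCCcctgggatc
TAL1, chr1:47232336-47232585, minus strand: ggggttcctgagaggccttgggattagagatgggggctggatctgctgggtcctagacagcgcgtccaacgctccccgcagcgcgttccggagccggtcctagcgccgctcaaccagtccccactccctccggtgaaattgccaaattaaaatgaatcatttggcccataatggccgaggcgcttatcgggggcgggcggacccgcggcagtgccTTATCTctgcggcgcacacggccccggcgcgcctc
LYL1, chr19:13102859-13103108, minus strand: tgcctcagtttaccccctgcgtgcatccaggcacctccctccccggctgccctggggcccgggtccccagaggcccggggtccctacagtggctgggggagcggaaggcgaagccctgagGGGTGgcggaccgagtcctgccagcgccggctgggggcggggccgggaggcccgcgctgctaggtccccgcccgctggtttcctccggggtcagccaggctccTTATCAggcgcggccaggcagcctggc
KLF1, chr19:12887202-12887451, minus strand: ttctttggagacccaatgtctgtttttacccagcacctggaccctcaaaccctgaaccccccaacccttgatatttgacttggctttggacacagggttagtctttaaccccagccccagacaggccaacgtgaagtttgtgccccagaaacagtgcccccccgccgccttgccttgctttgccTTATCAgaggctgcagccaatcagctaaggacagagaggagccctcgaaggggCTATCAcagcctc
GFI1B, chr9:132978444-132978693, plus strand: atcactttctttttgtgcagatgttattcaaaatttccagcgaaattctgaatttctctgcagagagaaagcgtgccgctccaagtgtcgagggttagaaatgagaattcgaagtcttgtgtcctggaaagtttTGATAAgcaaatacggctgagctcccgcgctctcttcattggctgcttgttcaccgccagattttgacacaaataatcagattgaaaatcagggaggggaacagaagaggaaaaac

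A GATA site was present in 4 of the 10 windows, those of KLF1 (2 sites), LYL1, TAL1 and GFI1B shown above, against 22.3% of 35116 promoter windows of all genes. The CACCC core was present in 5 of 10 windows, against 54.7% of all, and the GATA1 window held 4 of them. An E-box (CANNTG) was present in 4 of 10 windows, against 61.8% of all, and the NFE2 element in none of the 10, against 0.234% of all. These are matches of letters only, and the expression data hold no measurement of binding.

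GATA1 was the most abundant of the 10 and one of the steadiest. Its lowest, median and highest levels over the 22 time points were 104 FPKM at 22 h, 134 FPKM, and 149 FPKM at 30 h. It began at 115 FPKM at 0 h and 113 FPKM at 2 h, reached 145.6 FPKM at 10 h, and passed through 109, 104 and 112 FPKM at 20, 22 and 24 h before the second day's high. At 16 h and 18 h it was 58.0 and 49.2 FPKM, its 2 lowest values of 24. ZFPM1, its cofactor, was the least abundant by far. It ranged from 5.89 FPKM at 22 h through a median of 9.23 FPKM to 13.3 FPKM at 32 h, with 6.34 and 5.73 FPKM at 16 h and 18 h.

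The TAL1 complex had its highest levels in the first 8 h. TAL1 ranged from 42.1 FPKM at 32 h through a median of 45.5 FPKM to 63.5 FPKM at 4 h, and from 14 h on it stayed between 40.3 and 50.2 FPKM, 16 h and 18 h included. LYL1, its relative, lay between 45.3 FPKM at 2 h and 81.6 FPKM at 8 h, with a median of 71.1 FPKM, and was 26.1 and 20.7 FPKM at 16 h and 18 h. The adaptor LMO2 had the widest span of the 10. It was 51.9 FPKM at 0 h and 46.8 FPKM at 2 h, 103 FPKM at 4 h and 143 FPKM at 8 h, with a median of 93.3 FPKM, and the highest level on the second day was 113 FPKM at 30 h. At 16 h and 18 h LMO2 was 88.2 and 82.4 FPKM, below its values at 14 h (126 FPKM) and 20 h (91.0 FPKM). LDB1, the adaptor that lets these complexes pair, was between 57.8 FPKM at 20 h and 95.0 FPKM at 6 h, with a median of 67.2 FPKM and 55.3 and 50.8 FPKM at 16 h and 18 h.

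KLF1 and NFE2, the activators closest to the globin genes, took different courses. KLF1 was 72.6 and 68.5 FPKM at 0 h and 2 h, 106 FPKM at 4 h and 114 FPKM at 8 h, and its lowest and median levels were 68.3 FPKM at 46 h and 83.9 FPKM. It was 32.7 and 24.2 FPKM at 16 h and 18 h, far below every other time point. NFE2 lay between 78.1 FPKM at 2 h and 169 FPKM at 32 h, with a median of 111 FPKM, and its 116 and 109.6 FPKM at 16 h and 18 h fell among its other values. The time point of its highest value is the one the study names as a mild STRIPE, and without it the highest was 132 FPKM at 30 h.

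The repressor GFI1B had a single early high point. It was 32.2 FPKM at 0 h, 50.0 FPKM at 2 h, 72.2 FPKM at 4 h and back to 33.6 FPKM at 8 h, around a median of 44.7 FPKM, and was 31.4 and 25.9 FPKM at 16 h and 18 h. GFI1B overlaps TSC1 on the opposite strand, which was between 5.56 and 7.86 FPKM, and whether reads were assigned by strand is not given in the sources used here. MYB was 49.9 FPKM at 0 h, its lowest value of the 24, had a median of 82.2 FPKM and reached 115 FPKM at 46 h. At 16 h and 18 h it was 182 and 218 FPKM, above every other time point.

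**Figure D1:**
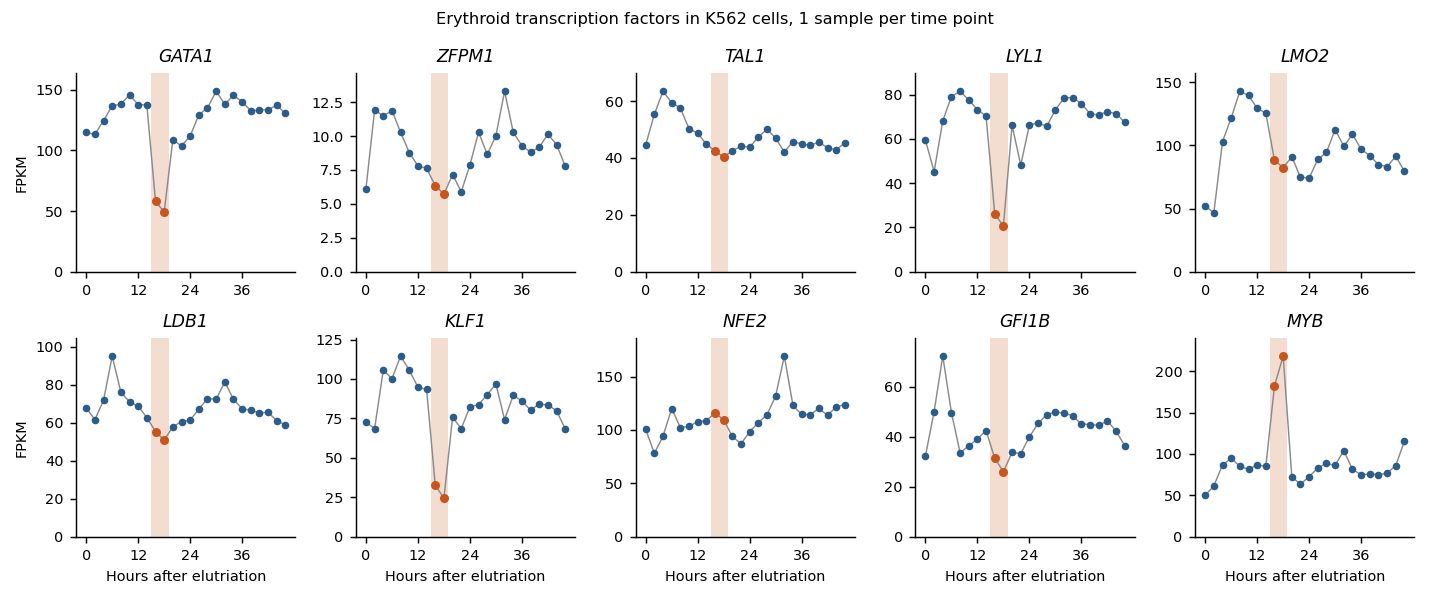
FPKM of each of the 10 genes (vertical axes, each from 0) against hours after elutriation; each point is 1 sample and orange points in the shaded band are 16 h and 18 h. GATA1, LYL1 and KLF1 drop in the band, MYB peaks in it, and LMO2 climbs from 46.8 FPKM at 2 h to 143 FPKM at 8 h.

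Ordered by median level the genes ran GATA1, NFE2, LMO2, KLF1, MYB, LYL1, LDB1, TAL1, GFI1B and ZFPM1, a span from 134 to 9.23 FPKM. The median gene of the table stood at 13.4 FPKM, so all but ZFPM1 were well expressed, from the 80.4th percentile of levels (GFI1B) to the 94.7th (GATA1), and ZFPM1 was at the 40.3rd. The ranges of neighbours in this order overlapped over the 22 time points, except for GFI1B and ZFPM1. The interquartile ranges also separated GATA1 from NFE2 and LDB1 from TAL1, and no other neighbours. On the log2(FPKM + 1) scale the span between lowest and highest was 0.52 for GATA1, smaller than in 77.2% of genes, and 1.59 for LMO2, larger than in 95.0% of genes. The median span of the 10 genes was 0.94, against 0.71 over all genes.

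In the first hours after elutriation LMO2, MYB, KLF1 and LYL1 were low and then higher. The mean of 4 h to 14 h was compared with that of 0 h and 2 h, a window chosen after the values were seen and given without a test. LMO2 went from a mean of 49.4 to 127 FPKM, a difference of 1.34 on the log2(FPKM + 1) scale, larger than in nearly every other gene. MYB went from 55.5 to 86.6 FPKM, a difference of 0.64. These 2 of the 10 genes passed 1.5-fold, against 1.53% of all genes. KLF1 (70.6 to 102 FPKM, a difference of 0.53) and LYL1 (52.4 to 75.0 FPKM, 0.52) were just under that size. In GATA1, KLF1, LMO2, MYB and LYL1 all of the 6 later samples lay above both early ones. In TAL1, NFE2, GFI1B, LDB1 and ZFPM1 the samples overlapped. The share of all genes separated in this way is not given here, so how unusual this is cannot be read from it.

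The same hours 1 day later showed smaller differences in these 4 genes. Between 24 h and 26 h on the one hand and 28 h to 38 h on the other, none of the 10 genes passed 1.5-fold, against 0.522% of all genes, and the difference was 0.30 for LMO2, 0.12 for MYB, 0.05 for KLF1 and 0.14 for LYL1. GATA1 (0.26 on the first day and 0.22 on the second) and NFE2 (0.25 and 0.30) were alike on both. The median of the 10 genes was 0.26 on the first day and 0.15 on the second, against 0.01 and 0.02 over all genes.

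**Figure D2:**
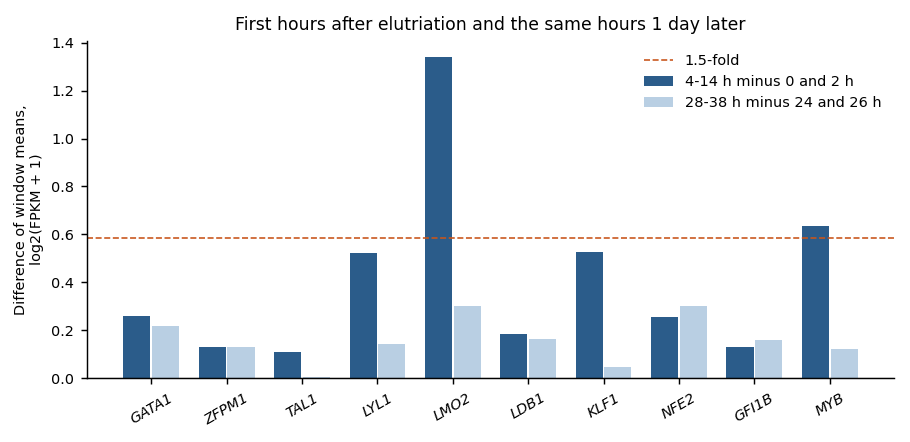
Difference between the mean log2(FPKM + 1) of 6 later samples and of the 2 samples before them (vertical axis), on the first day (dark bars) and the second day (light bars), with 1 bar per gene and no error since each time point is 1 sample. LMO2 (1.34) and MYB (0.64) pass the dashed 1.5-fold line on the first day and no gene passes it on the second.

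Most of the 10 genes followed a 24 h order in time, with their high points in the hours before the middle of the cycle. In the JTK test, which compares the order of all 24 values with cosine curves and takes its p-value from 100000 permuted orderings, 6 of the 10 genes were called, against 11.9% of all genes. They were LDB1 (adjusted p = 0.00356), LMO2 (0.00372), GATA1 (0.00691), TAL1 (0.0112), LYL1 (0.0128) and KLF1 (0.0154). LDB1 ranked 10th of 12285 genes by this statistic. GFI1B (0.0657), ZFPM1 (0.0722), NFE2 (0.46) and MYB (0.656) were not called. Without 16 h and 18 h, 6 of 10 were again called, against 14.7% of all genes, and these were LDB1, LMO2, GATA1, TAL1, LYL1 and KLF1. GATA1 was not called after quantile normalization (adjusted p = 0.0951) nor TAL1 after Z-score quantile normalization (adjusted p = 0.0532).

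The size of the cycle was estimated with a 24 h cosine and sine beside a linear term, fitted with limma to log2(FPKM + 1) over the 22 time points. Its F test called 7 of the 10 genes, against 15.1% of all genes tested. With a cycle of 20 h or of 28 h in place of 24 h it called 3 of the 10, and with all 24 time points 5. Of 44 erythroid genes, described further on, it called 15 in the main fit. It called 8 of them with 20 h, 6 with 28 h and 9 with all 24 time points. The share over all genes in these other fits is not given here. LMO2 had the largest amplitude, 0.39 (SE 0.08, adjusted p = 0.0124), a 1.73-fold difference from trough to peak with the peak at 10.4 h. ZFPM1 followed with 0.28 (SE 0.07, adjusted p = 0.0310) and a peak at 6.73 h. GATA1 combined the smallest adjusted p (0.00594) with an amplitude of only 0.16 (SE 0.03), a 1.25-fold difference, since its residual spread was the smallest of the 10. LDB1 (0.19, SE 0.04, peak at 7.41 h), LYL1 (0.19, SE 0.05, 9.97 h), KLF1 (0.18, SE 0.05, 9.47 h) and NFE2 (0.18, SE 0.05, 7.97 h) were also called, and TAL1, GFI1B and MYB were not.

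The fitted peaks of the 10 genes lay between 6.03 h (TAL1) and 10.4 h (LMO2). Of all genes tested 27.4% peaked between 6 h and 11 h, and of the genes called 32.7% did. For orientation, CCNE2, a cyclin of the start of DNA replication, had its fitted peak at 2.01 h with an amplitude of 0.37 (SE 0.07, adjusted p = 0.0116), and CCNB1, the mitotic cyclin, at 17.8 h with 0.31 (SE 0.13, adjusted p = 0.193). The median amplitude of the 10 genes was 0.19, against 0.10 over all genes. Without 0 h, 2 h and 4 h the F test called 6 of the 10, KLF1 being lost (adjusted p = 0.0854). It called 8 of the 44 erythroid genes in that fit, against 15 with those hours included. The share over all genes in that fit is not given here. The residuals of consecutive time points were correlated in several of these genes (median r of 0.27 over 20 pairs, against 0.02 over all genes), and the p-values take them as independent.

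**Figure D3:**
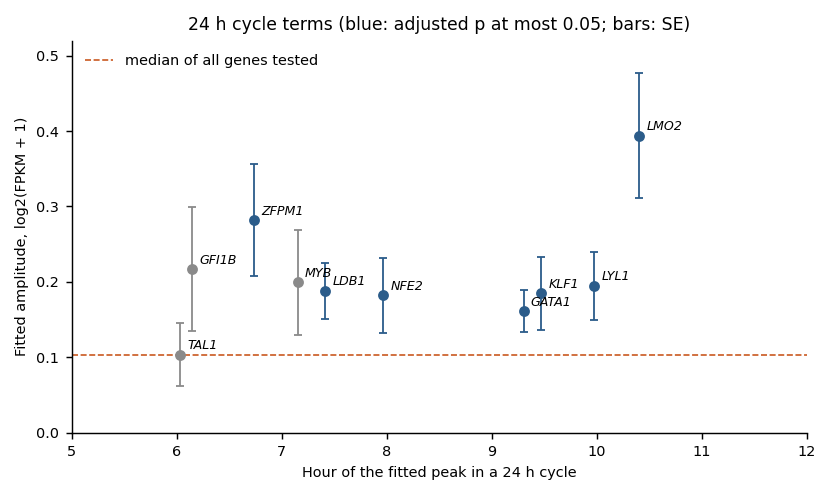
Fitted amplitude of a 24 h cycle on the log2(FPKM + 1) scale (vertical axis) against the hour of the fitted peak (horizontal axis) for each gene over 22 time points; bars are SE, blue points have an adjusted p of at most 0.05 and the dashed line is the median of all genes tested. The 10 peaks lie between 6.03 h and 10.4 h and LMO2 has the largest amplitude, 0.39.

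Over the 2 days NFE2, MYB and GATA1 were called higher with time in the main fit, and none of the 10 genes was called lower. The linear term of the same limma fit, adjusted over 12253 genes, gave 3 of 10 genes higher with time, against 19.5% of all genes. It gave 0 of 10 lower, against 12.5% (1 of the 10, TAL1, was lower at an unadjusted p under 0.05). With only 10 genes, these counts do not set the group apart from all genes. NFE2 rose by 0.29 per 24 h (SE 0.06, 95% interval 0.16 to 0.41, adjusted p = 0.000847), or 1.22-fold. Over the 10 hours measured on both days its mean went from 99.6 ± 11.9 to 122 ± 19.2 FPKM (SD over 10 time points), with the second day higher at 9 of 10 hours. MYB rose by 0.24 (SE 0.08, adjusted p = 0.0247), or 1.18-fold, from 76.6 ± 14.3 to 86.7 ± 13.5 FPKM, higher at 7 of 10 hours. GATA1 rose by 0.11 (SE 0.04, adjusted p = 0.0246), or 1.08-fold, from 126 ± 14.9 to 135 ± 10.2 FPKM, higher at 6 of 10 hours.

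Of these only NFE2 kept its call in every alternative fit. MYB rested on the ends of the series: its adjusted p was 0.104 without 0 h, 0.0509 without 2 h and 0.0928 without 46 h, with the call lost in 5 other alternatives. GATA1 was not called without 46 h (adjusted p = 0.0616) nor when each time point was centred on its median (adjusted p = 0.125), and it lost its call in 5 other alternatives. TAL1, the factor with the largest estimate below 0, had a change of -0.12 (SE 0.05, adjusted p = 0.0681) that was called without 0 h (-0.16, adjusted p = 0.0148) and in 5 other alternatives. The means of TAL1 were 51.1 ± 7.39 FPKM on the first day and 45.4 ± 2.36 FPKM on the second, and the second day was higher at 2 of 10 hours.

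LMO2 showed how far the first hours weigh on such a slope. Its change per 24 h was 0.03 (SE 0.11, adjusted p = 0.866) over 22 time points and -0.25 (SE 0.07, adjusted p = 0.00615) once 0 h, 2 h and 4 h were also left out. GFI1B moved the other way, from 0.13 (SE 0.09, adjusted p = 0.287) to 0.25 (SE 0.07, adjusted p = 0.0143), and without 4 h alone it was 0.19 (adjusted p = 0.0435). KLF1 (-0.07), LDB1 (0.01), LYL1 (0.12) and ZFPM1 (0.15) were not called in either fit. The median change of the 10 genes was 0.11, against 0.02 over all genes.

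**Figure D4:**
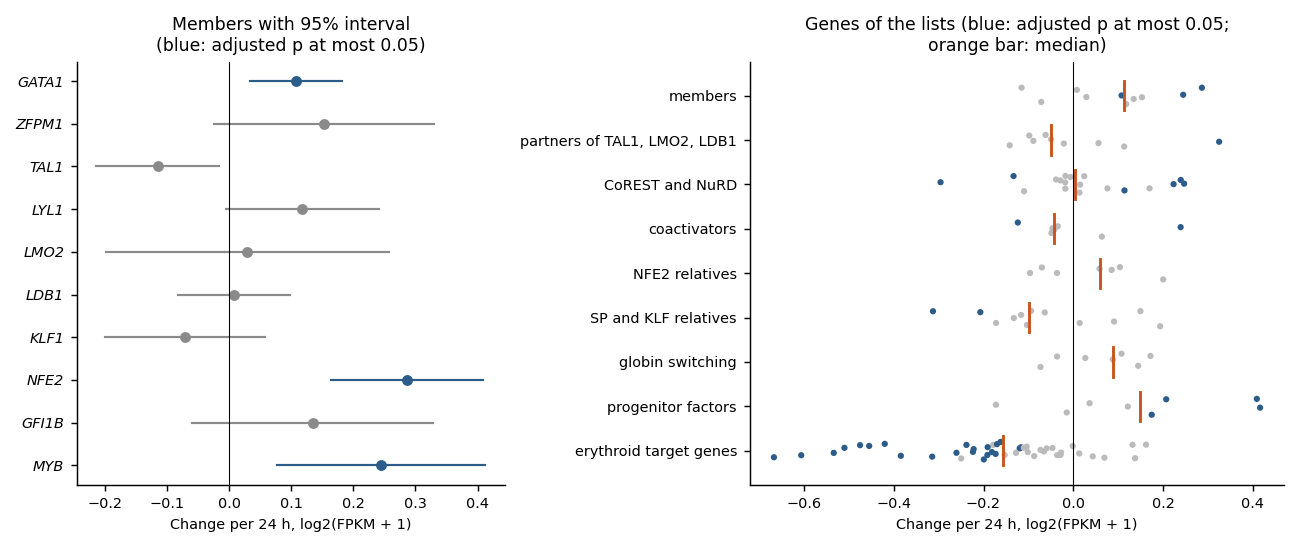
Left, change per 24 h on the log2(FPKM + 1) scale of each of the 10 genes with its 95% interval; right, the same quantity for each gene of 9 lists, with an orange bar at the median of the list. Blue marks an adjusted p of at most 0.05: NFE2, MYB and GATA1 lie to the right of 0, and 22 of 44 erythroid target genes lie to the left.

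Many of the genes these factors are known to act on fell over the same 2 days. Of 44 erythroid genes in the table (globins, haem enzymes, membrane proteins and transporters), 22 fell with time and 0 rose, 50.0% against 12.5% of all genes lower with time, and their median change was -0.16 per 24 h. CA1, a carbonic anhydrase of red cells, fell by 0.67 (SE 0.07), SLC4A1 (band 3) fell by 0.61 (SE 0.09) and ALAS2 fell by 0.53 (SE 0.05), from a mean of 73.2 FPKM on the first day to 49.5 FPKM on the second. The globins HBG1, HBG2, HBA2 and HBZ fell too, HBG2 by 0.38 (SE 0.11, adjusted p = 0.0133), while HBE1 was at 1908 FPKM on the first day and 1845 FPKM on the second (-0.04, SE 0.05). HBG1 and HBG2 are near-identical, as are HBA1 and HBA2, so their separate values are uncertain. Without 0 h, 2 h and 4 h, 25 of the 44 were lower and 0 higher, and with 16 h and 18 h in the fit 12 were lower and 1 higher. The shares over all genes in these fits are not given here. The median change of the 44 genes was -0.17 in the former, against 0.007 over all genes. In the latter it was -0.11, against -0.0061.

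Among the partners of the TAL1 complex few changes were called. Of 9 partner genes (E proteins, SSBP and ETO family members and LMO4) 1 rose (11.1%, against 19.5% of all genes) and 0 fell: CBFA2T3 (ETO2), a corepressor of the complex, by 0.32 per 24 h (SE 0.08, adjusted p = 0.00458), from 33.5 to 39.6 FPKM. ID1, an inhibitor that holds E proteins off DNA, rose by 0.51 (SE 0.14, adjusted p = 0.0072), and of the 3 ID genes in the table it was the one called. Of 18 LSD1-CoREST and NuRD genes, the corepressors of GFI1B, TAL1 and ZFPM1, 4 rose (22.2%, against 19.5% of all genes) and 2 fell (11.1%, against 12.5%), among them RCOR1 at 0.24 (SE 0.07), CHD3 at 0.25 (SE 0.07) and MBD3 at -0.30 (SE 0.07). Of 7 coactivators BRD3, a bromodomain protein that binds GATA1, rose (0.24, SE 0.06) and SMARCA4, the motor of a chromatin remodeller, fell (-0.12, SE 0.03), which is 14.3% each way, against 19.5% and 12.5%.

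Few changes were called among the relatives of NFE2 and KLF1. None of 7 NFE2 partners and relatives was called in limma's linear term, including MAFG, its small MAF partner (-0.10, SE 0.05, adjusted p = 0.132), and 1 had an unadjusted p under 0.05. Of 12 SP and KLF genes 0 rose and 2 fell (16.7%, against 12.5% of all genes), KLF6 by 0.31 (SE 0.08, adjusted p = 0.00702) and SP3 by 0.21 (SE 0.04, adjusted p = 0.000618). None of 7 regulators of globin switching was called (2 had an unadjusted p under 0.05), the largest change being that of SOX6, a repressor of embryonic globin (0.17, SE 0.07, adjusted p = 0.062).

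Several factors of progenitors and other lineages rose. Of 17 such genes 9 had no row in the table, among them FLI1 and CEBPA, and of the other 8 genes 4 rose and 0 fell (50.0% against 19.5% of all genes higher with time), led by SPI1 (PU.1), a myeloid and lymphoid factor that opposes GATA1 (0.42, SE 0.14, adjusted p = 0.0311, from 7.38 to 9.89 FPKM), and TCF7 (0.41, SE 0.06). This count depended on the processing. After quantile normalization 1 of the 8 rose and 1 fell, and of the 4 averaging 10 FPKM or more 0 rose and 0 fell. The shares over all genes in these fits are not given here. Markers of other cells rose as well. PTPRC (CD45) rose by 0.74 (SE 0.06), LYZ (lysozyme) by 0.85 (SE 0.05), CD3D by 0.58 (SE 0.08), ITGA2B by 1.16 (SE 0.12), TUBB1 by 0.25 (SE 0.05) and COL1A2 by 0.38 (SE 0.07), which makes 6 of the 8 genes in the table from the lists of other cells, against 19.5% of all genes. The summed level of the lymphoid markers went from between 20.2 and 33.8 FPKM on the first day to between 34.1 and 56.0 FPKM on the second, that of the myeloid marker from between 10.7 and 22.2 to between 19.8 and 28.2 FPKM, and that of the fibroblast marker from between 1.70 and 3.37 to between 2.68 and 3.94 FPKM. The 3 megakaryocyte markers summed to between 10.2 and 106 FPKM on the first day and between 13.9 and 93.0 FPKM on the second. The part of these markers in the changes of NFE2, MYB and GATA1 was not tested.

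At 16 h and 18 h the 10 genes split. For each gene a line was drawn from 14 h to 20 h, the mean distance of the 2 time points from it was taken on the log2(FPKM + 1) scale, and the same measure at 16 other pairs of consecutive time points served as reference. With 1 sample per time point there is no test. KLF1 lay 1.55 below its flanks (2.92-fold), LYL1 1.51 below (2.86-fold) and GATA1 1.18 below (2.26-fold), and MYB lay 1.34 above (2.53-fold). That makes 4 of 10 genes at least 2-fold off, against 16.1% of all genes, with 3 below, against 7.11%, and 1 above, against 8.95%.

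The other 6 factors deviated less. GFI1B (-0.40) and LMO2 (-0.32) were below their 16 reference pairs, and LDB1 (-0.18), ZFPM1 (-0.26), TAL1 (-0.08) and NFE2 (0.16) were inside them, so 6 of 10 genes were outside their own reference range, against 71.6% of all genes. In all, 8 of 10 lay below the line and 2 above. For 5 genes (GATA1, KLF1, LYL1, LDB1 and GFI1B) 16 h and 18 h were the 2 lowest of 24 values and for MYB the 2 highest. The median of the 10 was -0.29, against 0.14 over all genes, and MALAT1, a nuclear noncoding RNA, was 11073 and 12319 FPKM at these time points between 1099.5 FPKM at 14 h and 851 FPKM at 20 h.

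These deviations ran with GC content across the whole table. The median deviation went from 0.54 in the lowest of 5 equal classes of GC content to -0.53 in the highest, where 21.6% of genes were at least 2-fold below. KLF1 (65.7% GC in its longest transcript) and GATA1 (60.9%) belong to that highest class, LYL1 (57.4%) to the class below it and MYB (43.9%) to a low one. With the smooth GC trend over all genes removed, 1 of the 10 genes stayed past 2-fold, against 9.65% of all genes: LYL1 (-1.20), with KLF1 at -0.77, GATA1 at -0.70 and MYB at 0.99. ZFPM1 had the highest GC content of the 10 (69.0%) and deviated by -0.26, and GFI1B had nearly the lowest (44.7%) and deviated by -0.40. With the trend removed these became 0.69 and -0.71, about as large as that of GATA1. LDB1 (59.7%), also in the highest class, went from -0.18 to 0.23. What GC content contributes to these values was not tested further.

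**Figure D5:**
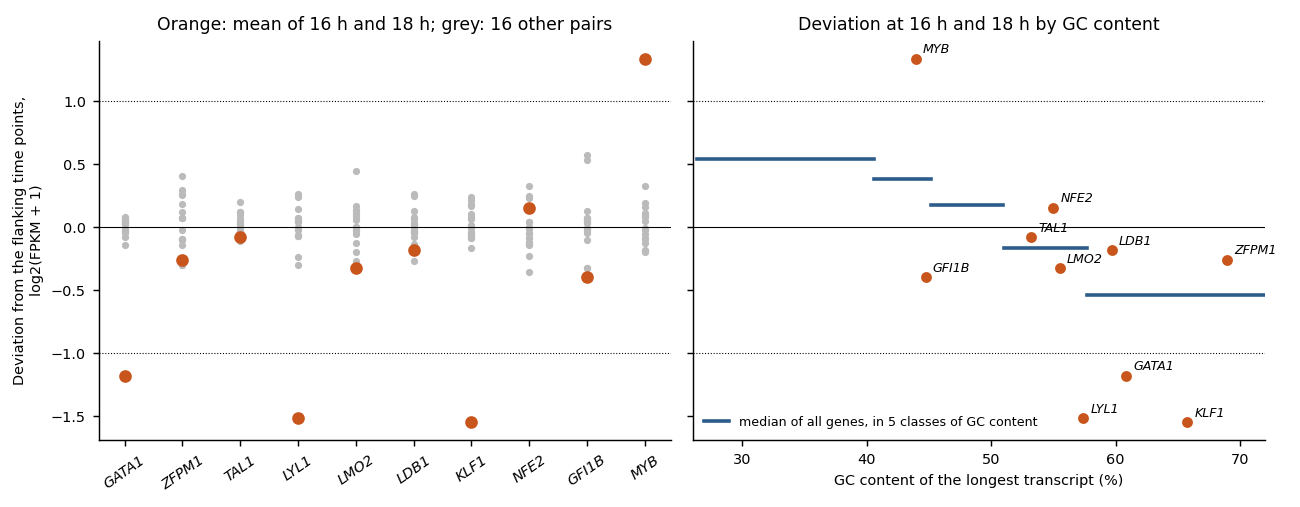
Left, mean deviation of 16 h and 18 h from the flanking time points (orange) and the same measure at 16 other pairs (grey) for each gene, on the log2(FPKM + 1) scale with dotted lines at 2-fold; right, the orange values against GC content of the longest transcript, with blue segments for the median of all genes in each of 5 GC classes (the last one drawn to 72%). KLF1, LYL1 and GATA1 lie below -1 and MYB above 1, while ZFPM1, at 69.0% GC, lies at -0.26.

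Partners of these factors deviated in both directions as well, and some target genes lay far below their flanks. SSBP4, which binds LDB1, lay 1.67 below its flanks, while SSBP2, its relative, lay 1.31 above. The E protein TCF4 was 1.36 above and TCF3, the most abundant one at a median of 107 FPKM, 0.10 below. Of the 44 erythroid genes 8 were at least 2-fold below, 18.2% against 7.11% of all genes, and 1 was at least 2-fold above, 2.27% against 8.95%. HBG2 went from 3079 FPKM at 14 h to 684 and 533 FPKM, and HBA2 from 404 FPKM to 85.1 and 76.1 FPKM. HBA1, the near-identical copy of HBA2, went the other way, from 730 FPKM at 14 h to 1237 and 1205 FPKM, with 595 FPKM at 20 h. Among the corepressors CHD3 (1.84) and MBD2 (1.46) lay above and MBD3 (-1.10) below, and of the KLF1 relatives SP2 lay above (1.92) and KLF16 below (-1.54).

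At 6 h and 32 h, departures in the 10 genes were no more frequent than over all genes. Each of these time points was compared with the mean of its neighbours on either side, with 16 other single time points as reference. At 6 h NFE2 (0.29) and LDB1 (0.36) were outside their reference range, 2 of 10 genes against 36.4% of all genes. At 32 h NFE2 (0.41), MYB (0.31), LDB1 (0.17) and TAL1 (-0.14) were, 4 of 10 against 42.8%. The change of NFE2 per 24 h was called with these time points left out as well.

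The courses of the 10 genes resembled each other to different degrees. Over the 22 time points the Pearson r of log2(FPKM + 1) was above 0 in 44 of 45 pairs, with a median of 0.45, and above 0.5 in 19 pairs. These values describe 1 series of samples that all 10 genes share, and those of other pairs of genes are not given here. KLF1 and LMO2 were the closest pair (r = 0.81, and 0.85 from 6 h on), followed by GATA1 and LYL1 (0.80 in both) and LMO2 and LYL1 (0.79, and 0.65 from 6 h on). GFI1B and ZFPM1 formed a further pair (0.73, and 0.68 from 6 h on). TAL1 and its relative LYL1 had r = 0.02, TAL1 and GATA1 0.10, and TAL1 and NFE2 -0.34, the 1 pair below 0. From 6 h on these were 0.38, 0.34 and -0.11, and TAL1 and LMO2 went from 0.24 to 0.645.

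Outside the 10, the genes with courses most like each one were sought among genes averaging 10 FPKM or more. For GATA1 they were KIFC2 (r = 0.84), STK25 (0.84) and PIEZO1 (0.81), and for KLF1 DPH7 (0.90), TSEN54 (0.89) and PUS1 (0.89). TAL1 was nearest to LBH (0.94), LMO2 to ATP6V0E2 (0.90), LDB1 to UBE2J2 (0.90), LYL1 to ZNF692 (0.91) and NFE2 to SH3GLB2 (0.90). MYB was nearest to EXO1 (0.86), ZFPM1 to WNK4 (0.86) and GFI1B to SLC66A1 (0.81). These r values are the highest among all such genes over the same 22 samples and are given as a description.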

How the data were processed

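RNA from 24 K562 samples, 1 per time point from 0 h to 46 h, was sequenced. Reads were aligned with STAR to GRCh37 and quantified with Cufflinks2 and Cuffnorm by the authors. Further tool versions, annotation and strandedness are not given in the sources used here. The authors deposited FPKM of 12285 genes, each at 1 FPKM or more in at least 12 time points, and a second table of scores, which is their Z-score quantile normalization and equalled the same steps recomputed here to 12 decimals. Depth cannot be recovered from FPKM.

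Symbols were matched to Ensembl identifiers. The 10 factors and the 13 other gene lists were chosen with earlier results of these data known. Changes with time were fitted with limma 3.58.1 (R 4.3.3; eBayes with trend) to log2(FPKM + 1), pseudocount 1, over the 12253 genes averaging 1 FPKM or more, with time and a 24 h cosine and sine, without 16 h and 18 h. The order in time was tested with a JTK statistic over 12 phases, and GC content came from the longest GENCODE 29 transcript (12148 genes, 99.1%). P-values were Benjamini-Hochberg adjusted over all genes at 0.05. Promoters came from RefSeq. Scripts were tested on simulated data. Named genes were the 10 factors, up to 3 per list by change and up to 3 by deviation, the 3 most alike each factor, and MALAT1, CCNE2 and CCNB1. Other genes (HBE1, HBZ, HBA1, TCF3, TSC1) were named after their values were seen. A further erythroid gene is not reported here.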

Additional observations from a re-analysis of the deposited data

How the results depend on the processing

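The number of the 10 genes called for change per 24 h, 3 over 22 time points, was 1 with all 24 time points in the fit, and between 1 and 4 when each of the 22 time points was left out in turn. With 16 h and 18 h in the fit the change of MYB turned from 0.24 to -0.012 per 24 h and that of KLF1 from -0.07 to 0.18, while GATA1 went from 0.11 to 0.30 and LYL1 from 0.12 to 0.36, and without 0 h, 2 h and 4 h (an alternative chosen after seeing the data) that of LMO2 turned from 0.03 to -0.25. The 6 genes called for a 24 h order in time became 1, LMO2, with a 20 h period, where 287 of 12285 genes were called, against 1460 with 24 h. Removing the GC trend took the 4 genes past 2-fold at 16 h and 18 h to 1. The counts of these 3 results stayed within 1.5 times in their other alternatives, whereas the F test of the cycle, 7 of 10, gave 3 with a 20 h and 3 with a 28 h cycle. The shares over all genes in the alternative limma fits are not given here. An equal count can hide a change of genes. With a 28 h period the JTK test also called 6 of the 10, and 445 of 12285 genes in all. LMO2 and KLF1 (both adjusted p = 0.062) were lost there, and GFI1B (0.033) and ZFPM1 (0.019) were gained. Gene by gene, 309 of 349 alternative values of the change per 24 h kept direction and side of the threshold, and 18 changed sign, mostly those of LMO2 and LDB1, whose changes were near 0. For the order in time 75 of 89 kept their side, and for the deviation 72 of 80 kept both. No paired analysis was possible because each time point has 1 sample and the labels give no replicates to pair. Each p-value measures spread about a fitted curve or of orderings in 1 series, and another culture was not analysed here.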
